A study of Rattus norvegicus with 6 samples.

Results

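Fatty acid oxidation enzymes were followed in the hearts of rats given ISO for 7 days. They were taken as a list of 33 genes that bring fatty acids into mitochondria or peroxisomes and shorten them there. Each gene was matched by its name in the deposited count table. A row was found for 32 of the 33, among 32883 named rows, and all 32 passed the filter on low counts, among 13766 tested genes. No row carried the name Eci2, an enoyl-CoA isomerase gene, which was not analysed here. The study has 6 heart RNA-seq libraries from outbred male Sprague–Dawley rats of wild-type genotype, 8 weeks old and weighing 250 to 300 g. Saline went under the skin of 3 control rats for 7 days, and 3 rats received ISO at 1.5 mg/kg/day for 7 days by the same route. ISO is taken to stand for isoproterenol, which activates beta-adrenergic receptors; the labels give only the abbreviation. The series uses this treatment as a model of myocardial hypertrophy and fibrosis, and each library is 1 rat.

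The adult heart draws most of its energy from long-chain fatty acids. Acyl-CoA synthetases activate them, and the carnitine shuttle carries them into mitochondria, with carnitine palmitoyltransferase 1 as the step that malonyl-CoA inhibits. Inside, acyl-CoA dehydrogenases, hydratases, hydroxyacyl dehydrogenases and thiolases remove acetyl-CoA in cycles and pass electrons through a flavoprotein to the respiratory chain. Peroxisomes run a parallel pathway on very long chains, and nuclear receptors of the PPAR family raise many of these genes in many tissues.

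The list divided between genes higher and genes lower in ISO, and 2 members passed the test, where 2.97% of all tested genes did. Cpt1a, the liver form of carnitine palmitoyltransferase 1, rose 1.69-fold, and Acot13, an acyl-CoA thioesterase gene, fell 1.64-fold. A gene was called when its adjusted p by edgeR's quasi-likelihood test was under 0.05, over all tested genes. This gave 1 member higher, where 1.47% of all tested genes were called higher, and 1 lower, where 1.5% of all were called lower. The other 30 were not called. Their log2 fold changes, ISO over saline, ran from −0.58 for Acadl to 1.89 for Echs1. The Echs1 value rested on ISO replicate 2 and was −0.56 without it, and the next highest was Ucp3 at 0.99. Of all 32 members 20 were below 0, against 47.7% of all tested genes. All 3 ISO libraries lay below all 3 saline libraries in 8 members, or 25% of the 32, where 14.6% of all tested genes did so. They lay above in 3 members, or 9.38%, where 14.1% of all did so.

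**Figure D1:**
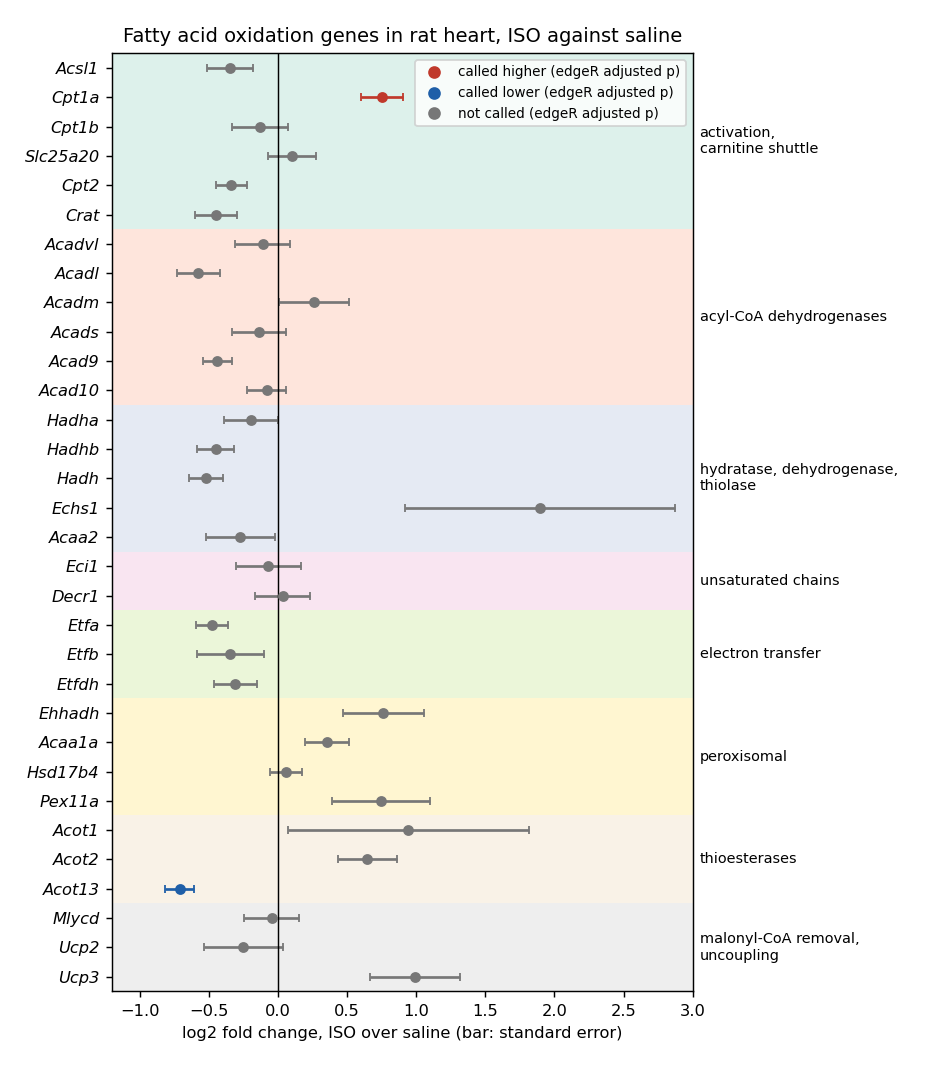
Log2 fold change, ISO over saline, of the 32 members grouped by role, with bars for the standard error of the edgeR estimate (3 libraries per group). Cpt1a at 0.75 and Acot13 at −0.71 are the called members, and the 4 peroxisomal members lie above 0.

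DESeq2, the tool the series names, called more members in both directions. At an adjusted p under 0.05 it called 3 higher, Cpt1a, Acot2 and Ucp3, against 5.46% of all tested genes. It called 8 lower, Cpt2, Crat, Acadl, Acad9, Hadhb, Hadh, Etfa and Acot13, against 4.74% of all. The series' own rule asks for a log2 fold change beyond 0.5 in size and a DESeq2 p under 0.05 without adjustment, and it took 4 higher and 3 lower members. The higher ones were Cpt1a, Ehhadh, Acot2 and Ucp3, against 8.82% of all tested genes, and the lower ones were Acadl, Hadh and Acot13, against 4.53%.

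Total counts ran from 14880391 to 17299589 per library. The libraries differed in ways that the groups do not explain, and the members followed this closely. Saline replicate 2 was the lowest saline library in 26 of the 32 members, where 38.0% of all tested genes did so. ISO replicate 2 was the highest ISO library in 29 of 32, where 36.6% of all did so. Both held together in 24 members, against 18.7% of all tested genes. Saline replicate 2 also had the largest share of mitochondrially encoded counts, 28.8% against 20.9% to 26.2% in the other saline libraries. Haemoglobin gene Hbb stood at 6008 CPM in it, where CPM is the count scaled to library size by trimmed means, and at 1839 and 2043 CPM in the other saline libraries. The part of these differences in the members' levels was not tested.

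**Figure D2:**
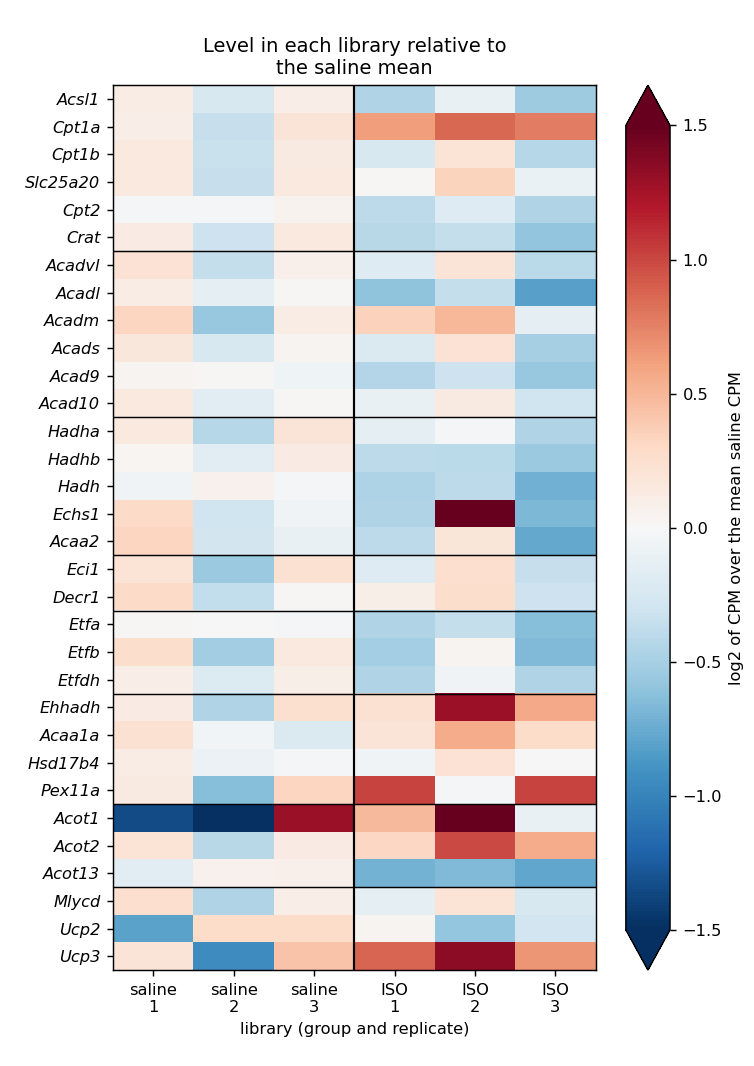
Log2 of each library's CPM over the mean saline CPM, for the 32 members (rows, grouped by role) in the 6 libraries (columns). Saline replicate 2 is pale blue down most of its column and ISO replicate 2 is redder than its neighbours, while Cpt1a is red and Acot13 blue in all 3 ISO libraries.

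Heart tissue mixes cell types, and in bulk RNA fewer cells of a type and less RNA per cell cannot be told apart. Of 14 cardiomyocyte markers 13 were found. Their summed level was 62830 to 77178 CPM in saline and 42506 to 60480 CPM in ISO, so the sums did not overlap. Single markers differed: 10 had changes below 0 and 3 above (median −0.23). ISO lay clear below saline in 4, or 30.8%, where 14.6% of all tested genes did so, and overlapped it in 9. Of the 13, 1 was called lower, where 1.5% of all tested genes were. Summed fibroblast markers, 12 of 12 found, stood at 5404 to 6005 CPM in saline and 10663 to 22533 CPM in ISO. Summed macrophage markers, 13 of 13 found, stood at 438 to 554 CPM in saline and 935 to 2073 CPM in ISO. Endothelial markers, with 9 of 10 found, gave 1146 to 1300.0 CPM in saline and 1088 to 1555 CPM in ISO. Summed adipocyte markers, 8 of 8 found, gave 153 to 273 CPM in saline and 243 to 391 CPM in ISO. Of their 3 tested members all had changes above 0 (median 0.69) and Cfd was called higher, while the defining markers Adipoq and Plin1 stayed at or under 1.88 and 0.626 CPM in every library. Summed brown adipocyte markers, 4 of 4 found, gave 32.6 to 52.2 CPM in saline and 51.6 to 68.0 CPM in ISO, with 0 of 2 tested members called and the defining marker Ucp1 at 0 in all 6 libraries.

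Summed atrial markers, 6 of 6 found, gave 45.2 to 220.2 CPM in saline and 903 to 1490 CPM in ISO, and 1 of their 3 tested members was called higher. That gene was Nppa, atrial natriuretic peptide, which stressed ventricles also express, at 42.8 to 217 CPM in saline and 901 to 1486 CPM in ISO. The other 5 were high in ISO replicate 1 alone, such as the atrial light chain gene Myl7 at 70.7 CPM against 0 to 1.56 CPM elsewhere. The part of the fibroblast, macrophage, adipocyte and atrial markers in the members' changes was not tested.

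The carnitine shuttle held the 1 member called higher. Cpt1a (ENSRNOG00000014254) measured 88.0, 64.7 and 93.6 CPM in the 3 saline libraries, in replicate order, and 126, 149 and 140.2 CPM in the 3 ISO libraries. Every ISO library was above every saline library. The means were 82.1 ± 15.4 CPM in saline and 138 ± 11.3 CPM in ISO (SD, n = 3). On the log2 scale the rise was 0.75 (SE 0.15, edgeR adjusted p = 0.0423). The call was lost when any 1 of the 6 libraries was left out, with a log2 fold change of 0.61 to 0.86 and an edgeR adjusted p of 0.0562 to 0.119. Without ISO replicate 1, the library high in Myl7, it was 0.81.

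Cpt1b, the muscle form of the same enzyme, was not called. It stood at 589, 421 and 579 CPM in saline and 448, 611 and 393 CPM in ISO, and the groups overlapped (log2 fold change −0.13, SE 0.20, edgeR adjusted p = 0.74). Cpt1a therefore took a larger part of the counts of both forms. Its share of Cpt1a plus Cpt1b counts was 13.01%, 13.3% and 13.9% in saline and 22.01%, 19.6% and 26.3% in ISO. The groups did not overlap, and the 3 saline libraries lay within 1 percentage point of each other although saline replicate 2 was low in both genes. The mean share was 13.4 ± 0.461% in saline and 22.6 ± 3.405% in ISO (SD, n = 3). The exact two-sided permutation test gave p = 0.1, the smallest p that 3 against 3 allows, and 0.3 after Benjamini-Hochberg adjustment over the 3 shares tested. Each share had a 95% Wilson interval at most 1.81 percentage points wide, which covers counting error only. The share is one of counts, not of molecules, because gene lengths were not used.

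**Figure D3:**
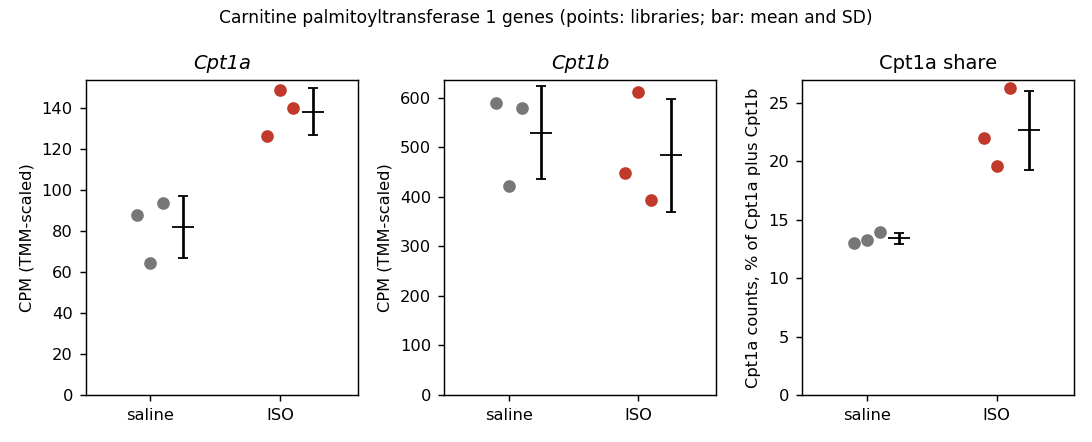
Levels of Cpt1a and Cpt1b in CPM and the Cpt1a share of their counts in percent, with 1 point per library and the mean and SD beside each group (n = 3). The Cpt1a shares of 13.01% to 13.9% in saline and 19.6% to 26.3% in ISO do not overlap, whereas the Cpt1b levels do.

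None of the other members of the activation and shuttle steps was called, and those clearest of the saline range were below it. Acsl1, which couples long-chain fatty acids to coenzyme A, stood at 1174 ± 159 CPM in saline and 920.5 ± 148 CPM in ISO, with overlapping groups (−0.35, SE 0.17, edgeR adjusted p = 0.249). Slc25a20, the carnitine-acylcarnitine carrier of the inner membrane, gave 0.10 (SE 0.17). Cpt2, which releases the acyl group from carnitine inside the mitochondrion, was at 269, 268 and 284 CPM in saline and 209, 239.8 and 199.9 CPM in ISO. These groups did not overlap, yet its change of −0.34 was not called by edgeR (SE 0.11, edgeR adjusted p = 0.128). Crat, carnitine acetyltransferase, was likewise lower in every ISO library at −0.45 (SE 0.15, edgeR adjusted p = 0.133).

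Acyl-CoA dehydrogenases, which take the first electrons from chains of different length, differed among themselves and none of 6 was called by edgeR. Without adjustment 2 of the 6 had an edgeR p under 0.05, both lower, where 10.9% of all tested genes were lower by that rule. DESeq2 called 2 of the 6, both lower, where it called 4.74% of all tested genes lower. Limma's voom called none. Acadl, the long-chain enzyme (ENSRNOG00000012966), stood at 1263, 1056 and 1182 CPM in saline and 769, 910.7 and 666 CPM in ISO. All ISO libraries were below all saline libraries. Its log2 fold change was −0.58 (SE 0.15, edgeR adjusted p = 0.0778), and without ISO replicate 2 it was −0.71 and called (edgeR adjusted p = 0.0346). Leaving out that library raised the calls over all genes from 203 higher and 206 lower to 492 and 346. With any other single library left out Acadl was not called (edgeR adjusted p = 0.138 to 0.228). Acad9, which also serves the assembly of respiratory complex I, was at 75.1, 73.6 and 69.5 CPM in saline and 53.4, 58.6 and 48.9 CPM in ISO (−0.44, SE 0.11, edgeR adjusted p = 0.0635). It too was called without ISO replicate 2 (edgeR adjusted p = 0.041), and not with any other single library left out.

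The medium-chain enzyme gene Acadm had the opposite sign at 0.26 (SE 0.25, edgeR adjusted p = 0.58). It stood at 948, 511 and 818 CPM in saline and 967, 1073 and 686 CPM in ISO, and the groups overlapped. The very-long-chain enzyme gene Acadvl, the short-chain enzyme gene Acads and Acad10, a less studied relative, lay at −0.11, −0.14 and −0.08 with overlapping groups. Their standard errors of 0.20, 0.20 and 0.14 were larger than these changes.

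The next steps of the mitochondrial cycle held 5 members, none called by edgeR or voom. DESeq2 called 2 of them, Hadhb and Hadh, both lower, where it called 4.74% of all tested genes lower. The same 2 had an edgeR p under 0.05 before adjustment, against 10.9% of all tested genes that were lower by that rule. Hadh, the short-chain and medium-chain hydroxyacyl-CoA dehydrogenase gene, stood at 383, 415 and 390.0 CPM in saline and 286, 302 and 240.4 CPM in ISO. The groups did not overlap, and the change was −0.52 (SE 0.12, edgeR adjusted p = 0.0614). Without ISO replicate 2 the edgeR adjusted p was 0.0406, and with any other single library left out it was 0.111 to 0.195. Acaa2, the mitochondrial thiolase gene, was at 500 ± 113 CPM in saline and 414 ± 138 CPM in ISO (−0.27, SE 0.25).

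Hadha and Hadhb encode the alpha and beta subunits of the trifunctional protein, which works on long chains. Hadhb stood at 1464, 1280 and 1558 CPM in saline and 1093, 1080 and 973 CPM in ISO, with no overlap (−0.45, SE 0.13, edgeR adjusted p = 0.101). Hadha stood at 962, 646 and 991 CPM in saline and 784, 852 and 631 CPM in ISO, and its groups overlapped (−0.20, SE 0.20, edgeR adjusted p = 0.594). The difference between these changes was not tested. RefSeq places both genes side by side on opposite strands, reading away from each other with 300 bases between the starts used here. Their promoter windows share 200 bases, shown because the genes of both subunits begin on either side of them. The stretch is chr6:31907551-31907750 on the plus strand of GRCr8, in lower case since no searched motif lies in it.
Hadha and Hadhb: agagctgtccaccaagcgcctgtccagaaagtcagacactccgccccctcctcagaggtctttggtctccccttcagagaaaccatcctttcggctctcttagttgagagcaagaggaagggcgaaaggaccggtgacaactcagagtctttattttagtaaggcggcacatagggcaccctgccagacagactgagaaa

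Echs1, the short-chain enoyl-CoA hydratase gene, rested on a single library. Its row held 40, 29 and 34 counts in the saline libraries against 26, 351 and 24 in the ISO libraries, in replicate order. ISO replicate 2 stood at 21.9 CPM and the other 5 libraries at 1.40 to 2.72 CPM. The fitted change of 1.89 (SE 0.97, edgeR adjusted p = 0.284) became −0.56 without ISO replicate 2. The row therefore gives no stable direction for this step.

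Enzymes that prepare unsaturated chains, Eci1 and Decr1, had log2 fold changes of −0.07 (SE 0.23) and 0.03 (SE 0.20) with overlapping groups. Neither was called by edgeR, DESeq2 or voom, and neither had an unadjusted p under 0.05.

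All 3 genes of electron transfer to ubiquinone had changes below 0. Etfa, the alpha subunit of the electron transfer flavoprotein, was even across saline at 459, 450 and 448 CPM and stood at 330, 352 and 290 CPM in ISO. No library overlapped, and the change was −0.48 (SE 0.12, edgeR adjusted p = 0.0649). Without ISO replicate 2 the edgeR adjusted p of Etfa was 0.0394, and with any other single library left out it was 0.119 to 0.204. Its partner Etfb was more variable, at 347, 202 and 321 CPM in saline and 203, 298 and 183 CPM in ISO, and gave −0.35 (SE 0.24, edgeR adjusted p = 0.432). Etfdh, the oxidoreductase that takes up the electrons, gave −0.31 (SE 0.15, edgeR adjusted p = 0.268).

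The 4 peroxisomal members all had changes above 0, though none was called by edgeR, DESeq2 or voom, and 1 of them was higher with an edgeR p under 0.05 before adjustment, where 12% of all tested genes were. That one was Ehhadh, a peroxisomal bifunctional enzyme gene, at 11.99, 8.003 and 12.9 CPM in saline and 12.9, 26.7 and 16.3 CPM in ISO. Its groups overlapped by a single ISO library, replicate 1, and the change was 0.76 (SE 0.29, edgeR adjusted p = 0.172). Without ISO replicate 2 it was 0.41 (edgeR adjusted p = 0.333). Pex11a, a membrane protein gene of peroxisome division, stood at 4.49, 2.63 and 5.12 CPM in saline and 8.27, 3.99 and 8.23 CPM in ISO (0.74, SE 0.36, edgeR adjusted p = 0.253). Here ISO replicate 2 was the lowest ISO library, unlike in most members. Acaa1a, the peroxisomal thiolase gene, gave 0.35 (SE 0.16, edgeR adjusted p = 0.227), and Hsd17b4, the other bifunctional enzyme gene, gave 0.06 (SE 0.12).

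Mitochondrial and peroxisomal steps can be set side by side by their medians, without a test. The 20 mitochondrial genes had a median log2 fold change of −0.17, with 15 below 0, and the 4 peroxisomal genes had 0.55. All tested genes had a median of 0.02. Relative to the saline mean of log2 CPM, with 0.1 CPM added, the mitochondrial median was −0.30, 0.17 and −0.45 in ISO replicates 1 to 3. The peroxisomal median was 0.23, 0.39 and 0.44 in the same libraries, above the mitochondrial one in each. Each gene was set against its own saline mean, so both medians lie around 0 over the saline libraries by construction. In saline replicates 1 to 3 the mitochondrial and peroxisomal medians were 0.17 and 0.17, −0.26 and −0.25, and 0.07 and 0.12. Their closeness there is therefore partly built in. The contrast in ISO rests on 4 peroxisomal genes. The 17 tested further peroxisomal genes, described below, had medians of 0.14, 0.15 and 0.02 in ISO replicates 1 to 3. In ISO replicate 2 this was below the mitochondrial median of 0.17. The summed level of the 22 found further peroxisomal genes was 2763 to 2789 CPM in saline and lower in ISO, at 2307, 2681 and 2126 CPM.

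**Figure D4:**
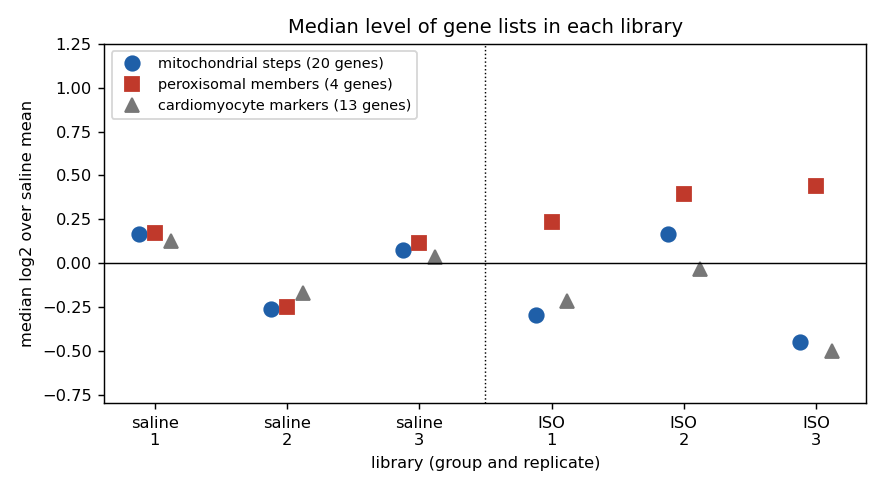
Median over genes of log2 CPM relative to the saline mean (0.1 CPM added) in each of the 6 libraries, for 20 mitochondrial genes, 4 peroxisomal genes and 13 cardiomyocyte markers. In the saline libraries the medians lie around 0 by construction. In ISO the peroxisomal median is between 0.23 and 0.44 while the mitochondrial median is between −0.45 and 0.17. The 17 tested further peroxisomal genes, not shown, had ISO medians of 0.02 to 0.15.

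Cardiomyocyte markers followed a like order over the ISO libraries. Over replicates 1 to 3 their median was 0.12, −0.17 and 0.04 under saline, against −0.22, −0.04 and −0.50 under ISO, so ISO replicate 3 was lowest and ISO replicate 2 highest for both lists. The part of the cardiomyocyte markers in the members' changes was not tested beyond the following scaling. When libraries were scaled by these markers, an alternative chosen after the data were seen, the mitochondrial median became 0.08 and the peroxisomal median 0.81. The median of all tested genes was then 0.28. Cpt1a was still called in that fit at 1.03 (edgeR adjusted p = 0.0468), whereas Acot13 at −0.46 was not (edgeR adjusted p = 0.216).

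Among the thioesterases, which split acyl-CoA back to fatty acid and coenzyme A, Acot13 and Acot2 had changes of opposite sign. Acot13 (ENSRNOG00000018415) stood at 86.3, 101 and 102 CPM in saline and 59.1, 61.1 and 56.1 CPM in ISO. The groups were far apart relative to their spread, at 96.3 ± 8.67 and 58.8 ± 2.48 CPM (SD, n = 3). The log2 fold change was −0.71 (SE 0.11, edgeR adjusted p = 0.019). The call held without ISO replicate 2 or 3 and was lost without ISO replicate 1 or any saline library, over a range of −0.79 to −0.67 and edgeR adjusted p from 0.0239 to 0.104.

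Acot2, a mitochondrial thioesterase gene, stood at 153, 99.6 and 145 CPM in saline and 164, 264 and 195 CPM in ISO. Every ISO library was above every saline library, and the change of 0.65 was not called by edgeR (SE 0.22, edgeR adjusted p = 0.129). Acot1, its cytosolic neighbour on the chromosome and a close copy, had 16, 7 and 107 counts across the saline libraries against 62, 153 and 44 across the ISO libraries. Reads of such copies can be split between them, so both values are uncertain. Acot1 took 0.44% to 4.45% of Acot1 plus Acot2 counts in saline and 1.30% to 3.49% in ISO, with overlapping groups (exact two-sided permutation p = 0.8, adjusted p = 0.8).

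Mlycd, malonyl-CoA decarboxylase, removes the inhibitor of carnitine palmitoyltransferase 1, and its level was 222 ± 53.1 CPM in saline and 215 ± 37.0 CPM in ISO (−0.05, SE 0.20). Ucp3, the uncoupling protein gene of muscle, stood at 39.8, 18.1 and 46.8 CPM in saline and 63.8, 88.4 and 55.4 CPM in ISO. No library overlapped, and the change of 0.99 was not called by edgeR (SE 0.32, edgeR adjusted p = 0.126). Without saline replicate 2 it was 0.67. Ucp2, its widely expressed neighbour, stood at 188, 396 and 397 CPM in saline and 336, 219 and 269 CPM in ISO, a change of −0.25 (SE 0.28). Ucp2 took 89.2 ± 6.54% of Ucp2 plus Ucp3 counts in saline and 79.4 ± 7.08% in ISO (exact two-sided permutation p = 0.3, adjusted p = 0.45). Macrophages also express Ucp2, and the part of the higher macrophage markers in its level was not tested.

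PPAR receptors with RXR partners bind a direct repeat of the hexamer AGGTCA with 1 base between the copies. Promoter windows from RefSeq on GRCr8, 250 bases before to 50 after each start, were found for 29 of the 33 members. With up to 2 mismatches in the 12 fixed bases, on either strand, 6 of the 29 held such a repeat, or 20.7%. The share was 3.77% of all 33469 windows of this length and 2.63% of the windows of tested genes. An exact single AGGTCA on either strand was in 24.1% of the members' windows. It was in 16.2% of all windows and 12.1% of those of tested genes, and it can be part of the repeat. The members with a repeat were Acadvl, Crat, Echs1, Etfa, Slc25a20 and Ucp3, whose measured changes ran in both directions. None of these 6 was called by edgeR, and Acadvl, Echs1 and Slc25a20 changed sign in some alternative fits. Cpt1a and Acot13 held none in this window. A match is a description of letters, not a binding site.

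The matches that lie before the start are shown with up to 25 bases on each side, 5′ to 3′ on the gene's strand, with the repeat in capitals, so that the sequences can be compared beside the levels above. They are Acadvl at chr10:55236706-55236747, Crat at chr3:34087285-34087347, Echs1 at chr1:204333624-204333686 and Etfa at chr8:64788082-64788144, on the minus strand, and Ucp3 at chr1:164227828-164227890 on the plus strand, all GRCr8. Acadvl has 1 mismatch and the others 2, and in Echs1 and Etfa the repeat reads on the opposite strand.
Acadvl: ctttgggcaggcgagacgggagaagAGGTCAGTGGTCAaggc
Crat: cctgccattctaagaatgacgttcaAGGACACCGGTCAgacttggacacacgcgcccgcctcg
Echs1: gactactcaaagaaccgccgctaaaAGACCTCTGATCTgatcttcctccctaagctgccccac
Etfa: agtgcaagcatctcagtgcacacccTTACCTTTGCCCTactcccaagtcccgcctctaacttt
Ucp3: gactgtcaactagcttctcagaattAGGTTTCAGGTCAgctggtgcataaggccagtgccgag

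Other genes of the pathway were taken from fixed lists, which were chosen with earlier results of these data known. Of 28 further mitochondrial genes, 1 was called lower, where 1.5% of all tested genes were. None was called higher, against 1.47% of all, and 27 were not called. The median of the 28 was −0.14. The called gene was Acss1, mitochondrial acetyl-CoA synthetase, at 473, 455 and 474 CPM in saline and 253, 324 and 225 CPM in ISO (−0.80, SE 0.15, edgeR adjusted p = 0.033). Of 17 tested further peroxisomal genes none was called by edgeR or voom. DESeq2 called 1 higher and 1 lower, where it called 5.46% and 4.74% of all tested genes. Before adjustment 3 were higher and 2 lower at an edgeR p under 0.05, where 12% and 10.9% of all tested genes were. The median was 0.07, with 11 above 0 and 6 below. ISO lay clear above saline in 5, or 29.4%, where 14.1% of all tested genes did so. It lay clear below in 2, or 11.8%, where 14.6% of all did so. Among the 17, Phyh, which starts the breakdown of phytanic acid, gave −0.46 (SE 0.15, edgeR adjusted p = 0.13).

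Of 16 tested peroxisome biogenesis genes none was called by edgeR or voom. DESeq2 called 1, which was lower, where it called 4.74% of all tested genes lower. At an edgeR p under 0.05 before adjustment 2 were higher and 2 lower, near the 12% and 10.9% of all tested genes, and the median was 0.08. Pxmp2, a peroxisomal membrane channel gene, gave −0.55 (SE 0.13, edgeR adjusted p = 0.06), and Pex19, which imports membrane proteins, gave 0.14 (SE 0.30). Among 20 tested genes of fatty acid uptake, storage and regulation, 3 were called higher and 2 lower. Of all tested genes 1.47% were called higher and 1.5% lower. The median of the 20 was 0.01. The regulators Ppara and Ppargc1b had log2 fold changes of −0.85 and −0.83, both called lower (edgeR adjusted p = 0.033 and 0.0461). Pdk4 and Angptl4, which PPAR receptors are known to raise, had log2 fold changes of 2.39 and 4.16 in the same rats (edgeR adjusted p = 0.0138 and 0.017). The part of PPAR receptors in these changes was not tested.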

How the data were processed

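RNA from 3 saline and 3 ISO rat hearts was analysed. Per the series' design text, 150 bp read pairs were aligned with HISAT2 and quantified with featureCounts by the authors. That text speaks of FPKM, whereas the table they deposited holds raw counts for each gene. Tool versions and strand setting: not given in the sources used here. Reads of a gene and its antisense partner can thus be mixed. The submitters' processing notes list mm10, whereas the rows carry rat Ensembl identifiers, so no gene coordinates are given beyond RefSeq promoter windows on GRCr8. Rows with a placeholder name (1006 of 33889, 0.98% to 1.32% of counts) were left out.

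The quasi-likelihood F test of edgeR 4.0.16 (R 4.3.3) was fitted to the counts, with TMM scaling, the default filter and Benjamini-Hochberg adjustment over 13766 genes. An SE is the log2 fold change over the root of F, without sign. In CPM, 3 reads are worth 0.175 to 0.204, depending on the library. DESeq2 1.42.0 and limma 3.58.1 (voom) were alternatives. No library was a duplicate of another by a chi-square test of counts. On counts simulated for ISO against saline (13621 genes), edgeR found 10% of the 1.5-fold changes, 60% of the 2-fold, 82% of the 4-fold and 98% of the 8-fold ones, and 9 of its 134 calls were false. DESeq2 found 24% of the 1.5-fold changes, and 34 of its 172 calls were false. Replicate numbers did not pair the samples (closing section). Named genes were all members, up to 3 called genes per direction of each other list, or otherwise its 2 most abundant, and some of these are not reported here. The members and lists were chosen with earlier results of these data known.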

Additional observations from a re-analysis of the deposited data

How the results depend on the processing

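Counts of members called moved with the tool and with single libraries. Members called higher numbered 3 by DESeq2, 4 by the series' rule and 0 with the replicate block, against 1, and ranged from 0 to 0 with each library left out. Members called lower numbered 8 by DESeq2 and 3 by the series' rule, against 1. They numbered 0 with the replicate block, 0 with scaling by cardiomyocyte markers, and 0 to 5 with each library left out. The 5 came without ISO replicate 2, where 346 of all 14074 tested genes were called lower. The replicate block rests on shared numbers only: the deviations of same-numbered libraries correlated at 0.09, −0.10 and 0.02. In that fit Cpt1a had an edgeR adjusted p of 0.101 and Acot13 one of 0.072, and all genes called fell from 203 higher and 206 lower to 15 and 13. All genes called were 752 and 653 by DESeq2, 280 and 123 without scaling, 322 and 272 without a filter, 67 and 10 with scaling by cardiomyocyte markers, and 6 to 492 higher and 5 to 346 lower with each library left out.

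The mitochondrial median of −0.17 became 0.082 with scaling by cardiomyocyte markers and lay between −0.39 and −0.04 with each library left out. The peroxisomal median of 0.55 became 0.81 with that scaling and lay between 0.32 and 0.65 with each library left out. Without scaling the medians were −0.07 and 0.65, and the median of all genes was 0.13. The Cpt1a share difference of 9.24 percentage points lay between 7.40 and 10.8, the Ucp2 share difference of −9.81 between −13.1 and −5.73, and the Acot1 share difference of 0.503 between −0.211 and 1.80 with each library left out.

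Over the 16 alternatives, 20 members kept the sign of their change and 12 changed it somewhere, none of them called. With scaling by cardiomyocyte markers Cpt1b became 0.11, Acadvl 0.14, Acads 0.10, Acad10 0.17, Hadha 0.066, Eci1 0.19, Mlycd 0.22 and Ucp2 0.00023. Without scaling Acad10 became 0.016, Eci1 0.023 and Mlycd 0.048. With each library left out Cpt1b ranged from −0.34 to 0.0013, Slc25a20 from −0.052 to 0.19, Acadvl from −0.30 to 0.018, Acads from −0.36 to 0.018, Acad10 from −0.21 to 0.017, Echs1 from −0.56 to 2.40, Eci1 from −0.29 to 0.057, Decr1 from −0.12 to 0.20, Hsd17b4 from −0.028 to 0.12 and Mlycd from −0.23 to 0.10. The cause of these moves was not tested. Groups of 3 limited the precision. The simulation, which changed genes drawn at random, missed most changes of 1.5-fold, and recovery for the members themselves was not simulated.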

Other observations

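Genes named here were chosen after their values were seen. Eci3, a peroxisomal enoyl-CoA isomerase gene next to Eci2 on the chromosome, had a row, and it stood at 244, 221 and 258 CPM in saline and 178, 222 and 164 CPM in ISO. Its change was −0.36 (SE 0.14, edgeR adjusted p = 0.179), and the groups overlapped by ISO replicate 2 alone. Acot3, a peroxisomal thioesterase gene, stood at 14.3, 8.50 and 10.6 CPM in saline and 19.7, 23.6 and 17.3 CPM in ISO, with no overlap. Its change was 0.86 (SE 0.21, edgeR adjusted p = 0.068; DESeq2 adjusted p = 0.0074). Cpt1c, the brain form of carnitine palmitoyltransferase 1, stood at 5.58, 2.81 and 4.67 CPM in saline and 8.46, 6.36 and 8.46 CPM in ISO (0.83, SE 0.28, edgeR adjusted p = 0.131).

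Hadha took 39.7%, 33.5% and 38.9% of Hadha plus Hadhb counts in saline and 41.8%, 44.1% and 39.4% in ISO. The groups overlapped, with saline replicate 1 just above ISO replicate 3, and no test was run on this pair.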
